A study of Mus musculus with 6 samples.

Results

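Metallothioneins and the zinc response were examined through 4 genes, Mt1, Mt2, Mtf1 and Slc30a1, in CD4 T cells activated in culture, from mice without miR-155 (KO) and from wild-type mice (WT). The members were all probe sets whose platform gene symbol was one of these names, which gave 6 probe sets of 22690 on the array and 4 genes of 12393. All 4 genes stayed among the 9294 genes kept after the filter on low values. They were chosen by their values in this contrast, since Mt2 was far above the other arrays on 1 KO array, so the difference between KO and WT is given for them as a description, with no test.

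Each genotype had 3 arrays, 1 per C57BL/6 mouse as the series describes them, and ages were not given. CD4 T cells were taken with magnetic beads from spleen and lymph nodes. For both genotypes the culture lasted 3 days, with stimulating CD3 and CD28 antibodies (1 µg/mL) plus interleukin 2 (20 U/mL). The KO mice came from a published miR-155 knockout line, the labels list no alteration for the WT mice, and the extent of the deletion was not given in the sources used here. MiR-155 is made from the transcript of Mir155hg, which measured 3.51 to 4.45 on the KO arrays and 6.59 to 8.21 on the WT arrays in log2 units.

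Metallothioneins are small, cysteine-rich proteins that bind zinc, copper and cadmium and hold free zinc low in the cell. MTF-1, the protein of Mtf1, is a zinc-finger transcription factor that binds DNA when zinc rises and switches on Mt1, Mt2 and Slc30a1, whose product ZnT1 carries zinc out of the cell. T cells take up zinc when activated. Metallothionein transcripts are also known to respond to glucocorticoids, oxidants, hypoxia and heat stress.

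The microRNA absent from the KO mice is shown first, with its seed, bases 2 to 8, in capitals. It lies at chr16:84714143-84714165 on the plus strand of GRCm38.p6.
mmu-miR-155-5p: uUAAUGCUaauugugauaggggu

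Mt1 and Mt2 are neighbours on chromosome 8, Mt2 at 94172618 to 94173567 and Mt1 at 94178883 to 94180327 (GRCm38.p6), with 5315 bases between them. Their RefSeq promoter windows, 250 bases before to 50 bases after the annotated start, are printed because both genes varied together across the arrays. Capitals mark matches on either strand to the core of the metal response element, the site that MTF-1 binds, searched as TGCACNC or TGCGCNC. The Mt2 window is chr8:94172368-94172667 and the Mt1 window chr8:94178839-94179138, both on the plus strand, and the latter is placed on a RefSeq start inside the annotated span of Mt1.
Mt2: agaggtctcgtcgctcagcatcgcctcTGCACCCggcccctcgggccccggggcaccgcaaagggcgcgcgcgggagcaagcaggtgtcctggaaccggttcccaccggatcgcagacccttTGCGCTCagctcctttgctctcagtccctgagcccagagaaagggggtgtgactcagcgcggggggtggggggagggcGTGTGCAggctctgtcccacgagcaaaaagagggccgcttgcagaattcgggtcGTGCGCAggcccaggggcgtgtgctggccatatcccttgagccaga
Mt1: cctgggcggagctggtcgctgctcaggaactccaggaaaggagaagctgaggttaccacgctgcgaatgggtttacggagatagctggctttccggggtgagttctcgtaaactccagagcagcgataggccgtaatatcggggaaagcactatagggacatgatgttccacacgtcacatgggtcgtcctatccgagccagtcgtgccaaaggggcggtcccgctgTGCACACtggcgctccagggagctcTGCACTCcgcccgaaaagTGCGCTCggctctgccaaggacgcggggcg

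The Mt2 window held 4 matches and the Mt1 window 3, while 25.9% of 32544 windows of this length held at least 1 and 1.99% at least 3. The Slc30a1 window (chr1:191906531-191906830) held 2 matches and the Mtf1 window (chr4:124802299-124802598) held 0. Like that of Mt1, the Slc30a1 window is placed on a RefSeq start inside the annotated span of its gene. The hypoxia response core, searched as ACGTG or GCGTG, matched at 2 places in each metallothionein window, and 1 of those in the Mt2 window overlapped a metal response match. At least 1 such match was present in 44.0% of all windows. The antioxidant element, searched as TGACNNNGC, matched at 1 place in the Mt2 window and at 0 in the Mt1 window, against 12.4% of windows with a match. A match describes the letters of the window and is not a site shown to be bound.

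KO replicate 1 stood apart. Of the 144 genes (1.55%) whose highest array lay at least 1 log2 unit above the next, 128 had that array as the highest. Replicates 1 of both genotypes carried Xist without Y-linked transcripts, and replicates 2 carried Y-linked transcripts with low Xist. Both replicate 3 arrays carried Xist (12.6 in each) together with Eif2s3y (10.05 in KO and 10.21 in WT), which goes against the description of 1 mouse per array.

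Mt2 measured 12.6, 7.73 and 9.87 on KO replicates 1, 2 and 3 and 9.49, 8.02 and 9.76 on WT replicates 1, 2 and 3, in log2 units. KO replicate 1 was thus the highest array and KO replicate 2 the lowest, and the WT arrays fell between them. KO replicate 1 lay 2.75 above the next array, a 6.74-fold gap, and 8.75-fold above the median of the other 5 arrays. The means were 10.1 ± 2.45 for KO and 9.09 ± 0.93 for WT (SD, n = 3), which differ by 0.98 ± 1.51 (SE). Without KO replicate 1 the difference was -0.29. The higher KO mean therefore came with that array, while the other KO arrays spanned a range close to that of WT.

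Mt1 was read by 2 probe sets. The probe set kept, the one with the higher mean, measured 13.2, 9.04 and 11.5 on KO replicates 1, 2 and 3 and 10.9, 9.38 and 11.6 on WT replicates 1, 2 and 3. The highest and lowest arrays were the same as for Mt2. Its name ends in _s_at, the manufacturer's mark for probes that can match more than 1 transcript, so some of its signal could come from a related gene. The means were 11.3 ± 2.09 for KO and 10.6 ± 1.15 for WT (SD, n = 3), which differ by 0.63 ± 1.38 (SE), and -0.34 without KO replicate 1. The dimmer Mt1 probe set measured 6.06, 4.94 and 5.51 in KO and 5.05, 5.23 and 5.14 in WT, and it too was highest on KO replicate 1. Its WT values stayed within a narrow range and did not follow the WT order of the bright probe set.

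**Figure D1:**
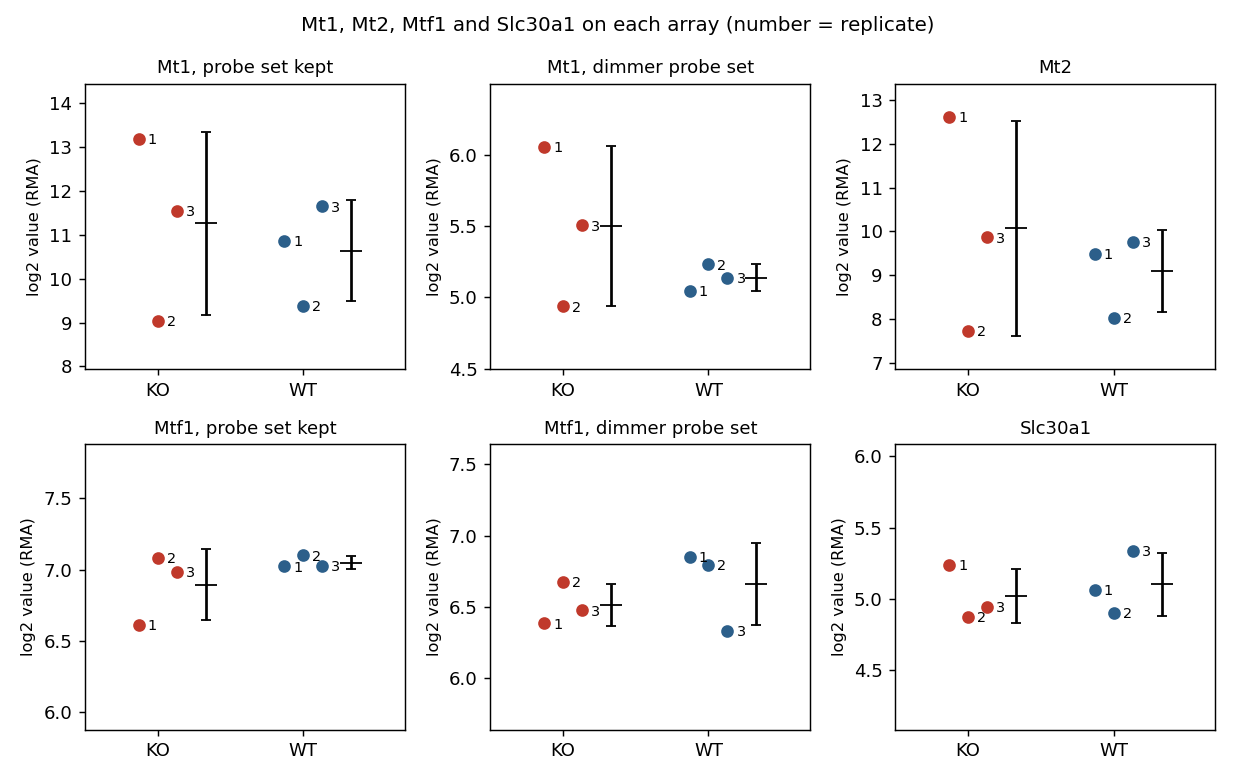
Log2 values (vertical axes) of the 6 probe sets on each array, KO in red and WT in blue, with the replicate number beside each point and black bars for mean ± SD (n = 3). The panels of Mt2 and of the Mt1 probe set kept span a wider axis than the other 4. Mt2 and Mt1 are highest on KO replicate 1 and lowest on KO replicate 2, while Mtf1 and Slc30a1 cover at most 0.52 log2 units.

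The spread of both metallothioneins was among the widest on the array. From the lowest to the highest array Mt2 covered 4.89 log2 units, or 29.7-fold, and Mt1 covered 4.15, or 17.8-fold. A range at least as wide as that of Mt2 was found in 5 genes (0.0538%) and one as wide as that of Mt1 in 14 genes (0.151%), each count including the gene itself. The genes were chosen for the height of Mt2 on KO replicate 1, so these shares are a description and test nothing. The spread was not confined to KO, since the WT arrays ran from 9.38 to 11.6 for the Mt1 probe set kept.

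In both genotypes the replicate 2 arrays, with Y-linked transcripts and low Xist, had the lowest Mt2 and, by the probe set kept, the lowest Mt1. Mt2 was 7.73 and 8.02 there, against 9.49 or more on the 4 arrays with high Xist. Of all genes kept, 8.66% had these arrays as the 2 lowest, and 5.68% had them lowest together with KO replicate 1 highest. Between arrays of the same Xist and Y pattern, KO minus WT was 3.13 for Mt2 at replicate 1, -0.30 at replicate 2 and 0.11 at replicate 3. For the Mt1 probe set kept the same differences were 2.32, -0.34 and -0.10. The dimmer Mt1 probe set gave 1.01, -0.29 and 0.37, and its highest WT array was replicate 2 (5.23). The part of sex in the levels was not tested.

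Mtf1, the zinc sensor, had small differences. The probe set kept measured 6.61, 7.08 and 6.99 in KO replicates 1 to 3, against 7.02, 7.10 and 7.03 in WT. KO replicate 1, the array with the highest metallothioneins, had the lowest Mtf1, 0.37 below the next array. The means were 6.90 ± 0.25 for KO and 7.05 ± 0.04 for WT (SD, n = 3), which differ by -0.16 ± 0.15 (SE), and -0.015 without that array. A dimmer Mtf1 probe set differed by -0.15 ± 0.19 (SE), with its lowest value on WT replicate 3.

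Slc30a1, the exporter gene, was dim, with 32.1% of probe sets in the table below it. It measured 5.24, 4.88 and 4.95 in KO replicates 1 to 3, against 5.06, 4.90 and 5.34 in WT, not far above the mean of the dimmest gene kept, 4.72. The groups overlapped and the highest array was WT replicate 3. The means were 5.02 ± 0.19 for KO and 5.10 ± 0.22 for WT (SD, n = 3), which differ by -0.08 ± 0.17 (SE), which was 0.037 without WT replicate 3. RMA compresses differences near the background, so a change of Slc30a1 could be understated.

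In 0 of the 4 genes did the KO and WT arrays separate, where 12.8% of all genes kept had groups that did not overlap. At an adjusted limma p under 0.05 there were 0 genes of 9294 (0%), and 691 (7.43%) had an unadjusted p under 0.05, 3.57% higher and 3.86% lower in KO.

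By the size of the gap, Mt2 ranked 4 and Mt1 ranked 28 among the 2396 genes highest on KO replicate 1, or within 0.043% and 0.301% of all genes kept. These ranks too rest on the value by which the genes were chosen and are a description only. Above Mt2 stood Hspa1a, Hspa1b and Adm, followed after it by Acvrl1 and Dpf1. Hspa1a and Hspa1b encode the stress-inducible heat shock protein Hsp70 and are near-identical copies whose probes cannot be told apart with certainty. Hspa1a measured 9.72 on KO replicate 1 and 4.12 to 4.94 on the other arrays, a gap of 4.77. Those 5 arrays lay around the mean of the dimmest gene kept, so Hspa1a passed the filter through KO replicate 1. Its gap could be understated by compression near the background. Adm, which encodes the hypoxia-induced peptide adrenomedullin, measured 8.89 there and 4.45 to 5.41 elsewhere. Over the 5 arrays without KO replicate 1, Mt2 still covered 2.14 log2 units and Mt1 covered 2.61.

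**Figure D2:**
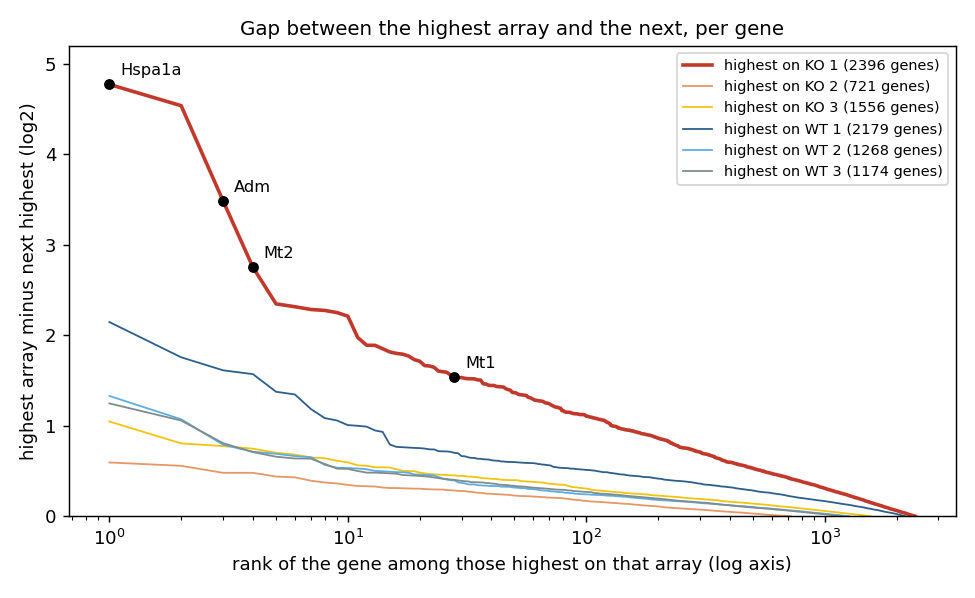
For each gene, the highest array minus the next highest in log2 units (vertical axis), ranked among the genes highest on that array (horizontal log axis), with 1 line per array. The line of KO replicate 1 lies above the others, with Mt2 at 2.75 and Mt1 at 1.54.

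The genes with the most similar profile to Mt2 were sought by the mean absolute difference over the 6 arrays, after each gene was centred on its own mean. Mt1, by the probe set kept, was nearest at 0.28, and the dimmer Mt1 probe set was not part of this search. Next came H2-Q2 (0.36), P4ha2 (0.42), Pkp2 (0.45), Cysltr1 (0.46), Tgm1 (0.46), Sccpdh (0.48) and Wwc1 (0.50). H2-Q2 is a class I histocompatibility gene with close copies, P4ha2 a hypoxia-responsive collagen prolyl hydroxylase, Cysltr1 a leukotriene receptor, Tgm1 a transglutaminase and Pkp2 a desmosomal plakophilin. P4ha2 measured 10.1, 6.17 and 8.43 in KO replicates 1 to 3, against 8.12, 7.42 and 8.71 in WT. Its highest array was KO replicate 1 and its lowest KO replicate 2, an order that the choice by nearness to Mt2 favours. Over the 5 arrays without KO replicate 1, H2-Q2 and Mt1 were nearest to Mt2, both at 0.21, and Sccpdh and P4ha2 were still among the nearest 8. For Mt1 over 6 arrays, Mt2, Pkp2 (0.29) and H2-Q2 (0.29) were nearest.

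The remaining members had other neighbours. Nearest to Mtf1 were Ssu72 (0.010), Cog8 (0.018) and Arhgap35 (0.019), and nearest to Slc30a1 were Septin4 (0.031), Rcan3 (0.041) and Cpt2 (0.048). Small distances are easy to reach for genes that vary little, so these values are not comparable with those of Mt2.

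**Figure D3:**
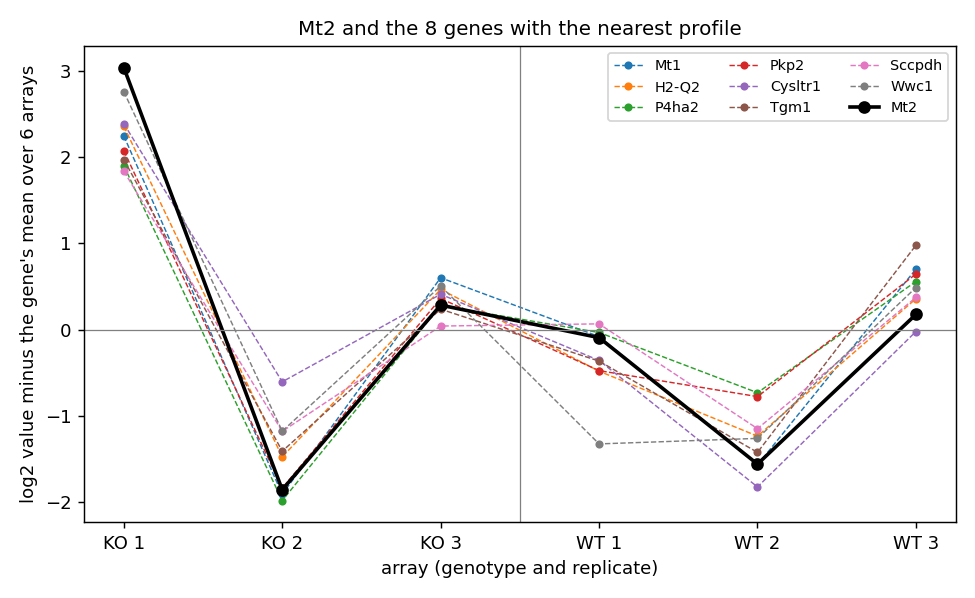
Log2 values minus each gene's mean over the 6 arrays (vertical axis) on each array (horizontal axis) for Mt2 in black and the 8 nearest genes in colour. All are highest on KO replicate 1, where Mt2 measured 12.6, which the choice of genes nearest to Mt2 favours.

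The other zinc genes were described by fixed lists. Of the other metallothioneins, Mt3 measured 6.50 to 6.60 over the 6 arrays with a difference of -0.019, and Mt4, at 3.52 to 3.83, lay under the filter. Neither showed the excess of Mt1 and Mt2 on KO replicate 1, although all 4 genes lie within 43124 bases.

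Among 7 tested zinc exporters of the Slc30 family other than Slc30a1, KO exceeded WT in 6 and lay below it in 1, and the median difference was 0.16 against -0.0036 over all genes. At an adjusted or unadjusted limma p under 0.05 there were 0. The smallest p belonged to Slc30a2 (0.16 ± 0.14, SE) and to Slc30a4, a vesicular exporter (0.19 ± 0.19, SE). With 1 array left out Slc30a2 ranged from 0.048 (without KO replicate 1) to 0.25 (without KO replicate 3), and Slc30a4 from 0.091 (without KO replicate 3) to 0.39 (without KO replicate 1). Slc30a7 and Slc30a9 were highest on KO replicate 1, by 1.08 and 1.11 over the next array, the pattern of 1.38% of genes. Without that array the median was -0.021, and Slc30a7 and Slc30a9 differed by -0.23 and -0.30.

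Among 10 tested importers of the Slc39 family, 6 were higher and 4 lower, with a median of 0.15 and 0 past the adjusted test. Slc39a8, the gene of the importer ZIP8, was the 1 gene of these 10 with an unadjusted p under 0.05, against 7.43% of all genes (limma adjusted p = 0.63). It measured 9.77, 9.23 and 9.22 in KO replicates 1 to 3, against 8.40, 8.47 and 9.24 in WT, a difference of 0.71 ± 0.27 (SE). WT replicate 3 lay at the level of the KO arrays, so the groups overlapped. Slc39a6, the gene of ZIP6, differed the other way by -0.89 ± 0.39 (SE), at 8.12, 9.27 and 8.18 in KO and 9.92, 9.47 and 8.86 in WT. Slc39a14, the gene of the inflammation-inducible ZIP14, differed by 0.47 ± 0.24 (SE), and by 0.20 without KO replicate 1.

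**Figure D4:**
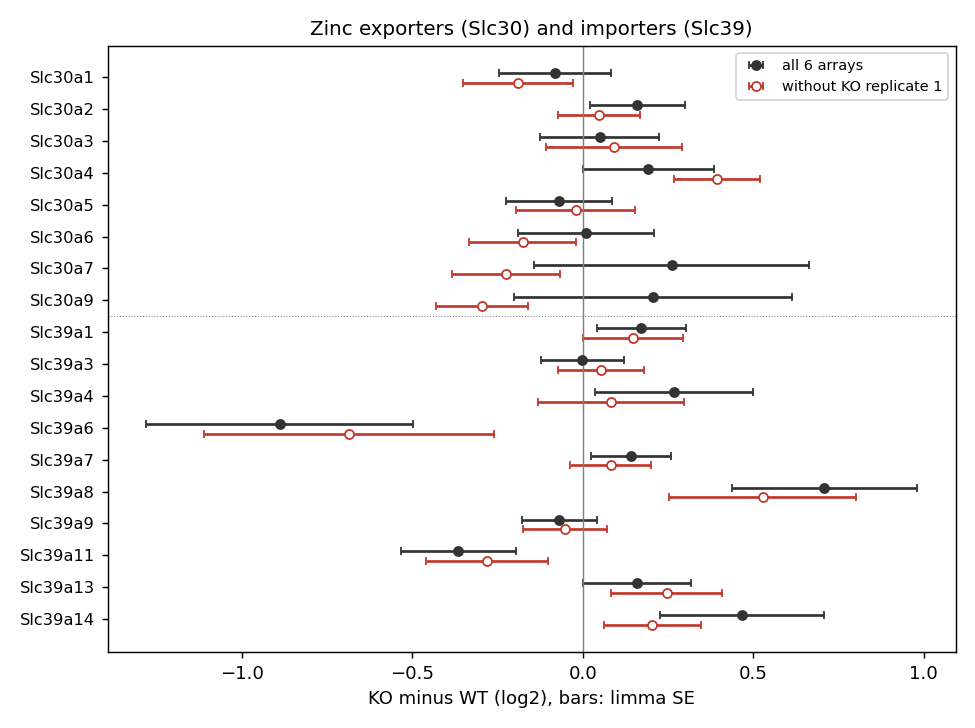
KO minus WT in log2 units (horizontal axis, bars are limma SE) for the zinc exporters above the dotted line and importers below it, with all 6 arrays in black and without KO replicate 1 in open red. Slc39a8 lies highest at 0.71 and Slc39a6 lowest at -0.89. Without KO replicate 1, Slc30a7 and Slc30a9 change sign, as do Slc30a6 (0.010 with all 6 arrays) and Slc39a3 (-0.0022 with all 6 arrays).

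Of 5 tested genes reported as further MTF-1 targets, 2 were higher and 3 lower, with a median of -0.078 and 0 at an unadjusted p under 0.05. Selenow, a selenoprotein gene, had all KO arrays above all WT arrays, as did 5.86% of genes, at 11.6, 11.3 and 11.8 against 9.91, 11.01 and 11.32 (difference 0.83 ± 0.36, SE), and it differed by 0.41 without WT replicate 1. Selenoh differed by -0.40 ± 0.23 (SE), and by -0.21 without KO replicate 1. Ndrg1, also a hypoxia-responsive gene, was highest on KO replicate 1 by 1.79. Of 8 copper and cadmium handling genes, 2 were higher and 6 lower with a median of -0.051. Of these 8, 1 had an unadjusted limma p under 0.05, against 7.43% of all genes. It was Commd1, whose protein acts in copper export (limma adjusted p = 0.63). Its KO arrays all lay below the WT arrays, as in 6.92% of genes (difference -0.36 ± 0.15, SE).

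Lists for other known inducers of metallothioneins were read beside them. Of 10 oxidative stress genes 6 were higher and 4 lower, with a median of 0.090 and 2 at an unadjusted limma p under 0.05, against 7.43% of all genes. Nfe2l2, the gene of the transcription factor NRF2, measured 9.04, 8.91 and 8.85 in KO and 8.50, 8.47 and 8.26 in WT, a difference of 0.52 ± 0.12 (SE, limma adjusted p = 0.63). The groups did not overlap, and Osgin1 differed by 0.60 ± 0.25 (SE). Hmox1, the heme oxygenase gene, differed by 0.18, was highest on KO replicate 1 by 0.47, and differed by -0.0095 without that array. Without KO replicate 1 the median of the list was 0.015, and Osgin1 differed by 0.36. Without WT replicate 2 the median was 0.012.

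Of 10 glucocorticoid response genes 9 were higher in KO, with a median of 0.15 against -0.0036 over all genes. Sgk1 (0.91 ± 0.37, SE) was the 1 gene with an unadjusted limma p under 0.05, against 7.43% of all genes (limma adjusted p = 0.63). Sgk1 measured 8.25, 6.85 and 7.52 in KO replicates 1 to 3, against 6.77, 6.20 and 6.92 in WT, so the groups overlapped, and the difference was 0.55 without KO replicate 1. On the KO arrays its order was that of Mt2, which not all genes of the list shared. How many of all genes have this order was not counted, so the shared order was not read as a link to Mt2. Of the 10 genes, 5 were highest on KO replicate 1, against 25.8% of all genes, and 2 were lowest there.

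All 15 tested hypoxia-inducible factor (HIF) response genes were highest on KO replicate 1, against 25.8% of all genes, and 7 of them by at least 1 log2 unit, against 1.38%. Their median difference was 0.30, and -0.20 without that array. The smallest p values were those of Vegfa (0.65 ± 0.36, SE) and Ddit4 (0.52 ± 0.29, SE), and 0 had an unadjusted limma p under 0.05. Vegfa differed by 0.26 without KO replicate 1, and Ddit4 by 0.19 without WT replicate 1. By the probe set kept, 3 of 10 heat shock genes were highest on KO replicate 1, against 25.8% of all genes. On that array 3 others were lowest, and the 3 highest included Hspa1a and Hspa1b. A dimmer Dnajb1 probe set was also highest there (10.7, against 9.71 to 10.1 elsewhere). So was a dimmer Hspa8 probe set (9.05, against 6.11 to 7.31), while the other Hspa8 probe sets were lowest on that array. The list had 4 members higher in KO and 6 lower (median -0.041). Hspe1 differed by -0.28 ± 0.15 (SE) and Bag3 by 0.38 ± 0.25 (SE), which were -0.18 and 0.14 without WT replicate 1. The part of hypoxia or heat stress in the metallothionein levels was not tested.

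Genes beside the metallothionein cluster on chromosome 8 were read for a change of the region. Of the 10 nearest protein-coding genes on the array, 7 were tested, with 2 higher and 5 lower in KO and a median of -0.031. Nup93, a nuclear pore gene, was lowest on KO replicate 1, at 7.31 against 7.72 to 9.32 on the other arrays (difference -0.86 ± 0.46, SE, and -0.56 without that array). Nudt21 differed by -0.19 ± 0.12 (SE), and by -0.13 without KO replicate 3. Bbs2 and Herpud1 were highest on KO replicate 1, by 0.36 and 0.49, so 2 of 7 had the array of the metallothionein peak as their highest, against 25.8% of all genes.

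Metallothioneins are also made by cells other than T cells, so markers of these were read on the same arrays. In such a bulk sample fewer cells of a type and less RNA per cell cannot be told apart. The 7 tested CD4 T cell markers had a mean level of 11.02 to 11.25 on the KO arrays and 10.5 to 11.1 on the WT arrays. Of 7 macrophage and monocyte markers on the array, 3 passed the filter, with a mean level of 5.62 to 6.14 in KO and 5.33 to 5.92 in WT, and Cd14, Lyz2, C1qa and Fcgr1 lay under it. Cd68 measured 7.10, 5.99 and 6.77 in KO replicates 1 to 3, against 5.50, 5.82 and 6.64 in WT. Of the remaining markers that passed, Adgre1 was highest on KO replicate 1 by only 0.014, and Csf1r was highest on KO replicate 3 by 0.38. All 6 neutrophil markers lay under the filter, as did 3 of 5 dendritic cell markers and 1 of 3 erythroid markers. The 6 tested B cell markers had mean levels of 7.11 to 7.69 in KO and 6.88 to 8.18 in WT, the 4 CD8 T cell markers 6.88 to 7.08 and 6.91 to 7.02, and 2 NK cell markers 6.49 to 6.88 and 6.00 to 7.21. The CD8 T cell markers did not move together. Runx3 was highest on KO replicate 1 by 1.06 (7.95), the pattern of 1.38% of genes, while Crtam (7.01) and Cd8a (5.69) were lowest there. The part of other cells in the metallothionein levels was not tested.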

How the data were processed

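The values deposited by the authors are log2 values, for which the submitters' processing notes name RMA and affy (versions not given in the sources used here), from biotin-labelled RNA on Affymetrix arrays. RMA subtracts background, brings arrays to a common distribution and summarises each probe set. Array medians lay between 6.45 and 6.49, and no detection calls were used here. The number of arrays limits the precision.

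Of 22690 probe sets, 20393 had 1 gene symbol in GEO's platform annotation, 691 had several and 1606 had none. The 64 control probe sets were left out. Of 12393 genes, 12369 were found by gene number in a RefSeq table of GRCm38.p6. The brightest probe set by mean stood for its gene, and the lowest 25% of genes by mean (3099) were left out. The genotypes were set against each other in limma 3.58.1 under R 4.3.3 (lmFit, eBayes, two-sided, Benjamini-Hochberg adjustment over 9294 genes). Differences are KO minus WT. For the members, the SE is that of the 3 against 3 values without moderation, and elsewhere it is limma's. The code was tested on simulated data. Sequences and windows are from RefSeq (GRCm38.p6), where all 4 members matched.

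Named were all member probe sets. From each list, up to 4 genes at unadjusted p under 0.05 were named, otherwise the 2 of lowest p. The 8 genes nearest Mt2, the 3 nearest each other member and the 6 with the largest gap were also named. Slc30a6, Slc30a7, Slc30a9, Slc39a3, Slc39a6, Slc39a14, Ndrg1, Hmox1, Bbs2, Herpud1, Hspa8 and Dnajb1 were added after their values were seen. So were the markers Adgre1, Csf1r, Cd68, Runx3, Crtam and Cd8a. The members and lists were chosen with earlier results of these data known. Alternatives were the replicate block, each array left out, median centring, a further quantile normalization, other filters, the mean of all probe sets and eBayes with trend and robust settings. Leaving out both replicate 3 arrays, the alternatives for the genes beside the cluster, and the likeness without KO replicate 1 were alternatives chosen after seeing the data.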

Additional observations from a re-analysis of the deposited data

How the results depend on the processing

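With 1 array left out, the differences ranged from -0.34 to 1.74 for Mt1, -0.29 to 2.15 for Mt2, -0.25 to -0.015 for Mtf1 and -0.19 to 0.037 for Slc30a1. Mt2 and the Mt1 probe set kept turned lower in KO without KO replicate 1, while the dimmer Mt1 probe set stayed higher by 0.084. Slc30a1 turned higher without WT replicate 3 and without both replicate 3 arrays (0.074). No gene passed the adjusted limma test under any alternative run. The unadjusted count of 691 was 276 without WT replicate 1, 1541 without KO replicate 2, 457 without KO replicate 1, 293 without KO replicate 3, 280 without WT replicate 2, 1338 without WT replicate 3 and 444 without both replicate 3 arrays. Mtf1 and Slc30a1 have no value with the lowest 50% of genes left out.

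List medians ranged, with 1 array left out, from -0.20 to 0.54 for HIF response, -0.14 to 0.055 for heat shock, -0.050 to 0.0054 for Mt3, -0.19 to 0.073 for further MTF-1 targets, -0.021 to 0.17 for zinc exporters, 0.082 to 0.22 for zinc importers, 0.012 to 0.12 for oxidative stress, -0.079 to -0.027 for copper and cadmium handling, 0.14 to 0.22 for glucocorticoid response and -0.12 to -0.017 for the genes beside the cluster. The mean of all probe sets gave 0.14 for heat shock and -0.096 for copper and cadmium handling. Leaving out the lowest 50% of genes, which tests fewer, gave 0.26 for further MTF-1 targets and -0.19 for oxidative stress. Where no construction shows it, the cause was not tested.

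With the replicate block, 918 of 9294 genes had an unadjusted limma p under 0.05, against 691 in the main fit, and 0 passed adjusted. The genes at that unadjusted p went from 0 to 2 of 5 for further MTF-1 targets, against this raised count over all genes. They went from 1 to 0 of 10 for importers and 1 to 0 of 8 for copper and cadmium handling. For oxidative stress they went from 2 to 1 of 10, and for CD4 T cell markers from 2 to 0 of 7. Deviations from the group means of same-numbered arrays correlated at -0.042, 0.64 and 0.40 over genes for numbers 1, 2 and 3. KO replicates 2 and 3 correlated best with the WT array of the same number, and KO replicate 1 with WT replicate 3 (0.39). Deviations within a group are tied to each other, so these correlations are not independent. Same-numbered arrays also shared their Xist and Y pattern. Whether the numbers pair the samples was not settled. The main fit left them out, so its SE includes any spread shared by same-numbered arrays.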
